A study of Mus musculus with 4 samples.

Results

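The genes described here are the collagens and the stromal matrix glycoproteins, with a few markers of the mesenchymal cells that usually make them, in mouse bone marrow-derived macrophages. They were taken from the table by name, as every gene whose symbol has the collagen form (Col, a number, a, a number) and 20 further named genes such as Fn1, Sparc, Thbs1, Lox, Acta2 and Pdgfrb. Of the 64 rows with such names, 49 reached a summed count of 40 over the 4 libraries, out of 55401 rows in the whole table, and these 49 (30 collagens and 19 others) are the members. The 2 control libraries came from Mettl3fl/fl mice, in which loxP sites flank part of the gene for the RNA methyltransferase METTL3, and the 2 knockout libraries from mice that also carried LysM-cre, a Cre recombinase driven by a lysozyme gene of myeloid cells. All mice were C57BL/6 and 8 weeks old, and all macrophages were grown from marrow with M-CSF and shared their dish for 24 h with MC38 cells, which come from a colon carcinoma of the mouse, so no group without tumour cells or without floxed alleles was compared. The libraries bear the numbers 1 and 3 in each genotype and are called control 1, control 3, knockout 1 and knockout 3. The labels call them biological replicates and do not say whether animals were pooled.

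Collagens are triple-helical proteins built from 3 chains, which may be copies of 1 gene product or products of different genes. Fibril-forming collagens give tissues their tensile strength, network collagens build basement membranes, and fibril-associated and beaded-filament collagens decorate or link them. Fibroblasts, osteoblasts and other mesenchymal cells are the main makers of this matrix, whereas macrophages are known to make some of its glycoproteins, among them thrombospondin 1 (Thbs1), TGFBI and fibronectin (Fn1), and to take collagen up and break it down.

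Library totals ran from 55100415 to 79209870 estimated counts, and 20650 to 20986 genes had a count. Mettl3 levels overlapped, with 18.3 and 23.2 CPM (estimated counts scaled for library size by the TMM method) in control libraries against 13.9 and 19.6 CPM in knockout libraries (log2 fold change -0.31 ± 0.27 SE, adjusted p = 1, edgeR's quasi-likelihood test). The counts do not show which exons of Mettl3 were read, so this level does not check the deletion. The libraries numbered 1 had Ddx3y, a gene of the Y chromosome, at 72.1 and 89.1 CPM and Xist at 0.589 and 0.624 CPM, whereas those numbered 3 had Ddx3y at 0.307 and 0.139 CPM and Xist at 1351 and 1161 CPM. Library number and the sex of the source animals therefore cannot be told apart, nor can litter or day of culture, and genotypes are compared below within a number as well as across all 4 libraries. In bulk RNA, fewer cells of a type and less RNA per cell cannot be told apart.

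Members differed in level by several orders of magnitude. Thbs1 (ENSMUSG00000040152, chromosome 2, 118111876 to 118127133, plus strand), an adhesive glycoprotein that also activates latent TGF-beta, stood at 1273 FPKM (fragments scaled for gene length and library size, a unit that allows levels of different genes to be compared) in control 1 and 969 in control 3, and at 759.6 and 655.8 FPKM in knockouts 1 and 3. It made up 74.0%, 58.5%, 71.7% and 55.6% of the summed FPKM of all members in that order of libraries. Tgfbi (ENSMUSG00000035493, chromosome 13, 56609523 to 56639562, plus strand), a collagen- and integrin-binding protein, came next at 273, 251.9, 157.8 and 214 FPKM. No other member reached a mean of 50 FPKM, which was the level set for the high class. Between 1 and 50 FPKM stood 27 members, from Lox (24.3, 44.2, 25.7 and 37.0 FPKM), the enzyme that starts collagen cross-linking, down to Col6a2, and the other 20 members averaged under 1 FPKM. Fibronectin, although known as a macrophage product, belonged to the middle class at 12.2, 37.2, 9.82 and 27.6 FPKM, so level alone did not separate the genes by their known makers. With a class limit of 20 FPKM in place of 50, Lox, Sparc, Acta2, Col1a1 and Fn1 joined Thbs1 and Tgfbi.

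**Figure D1:**
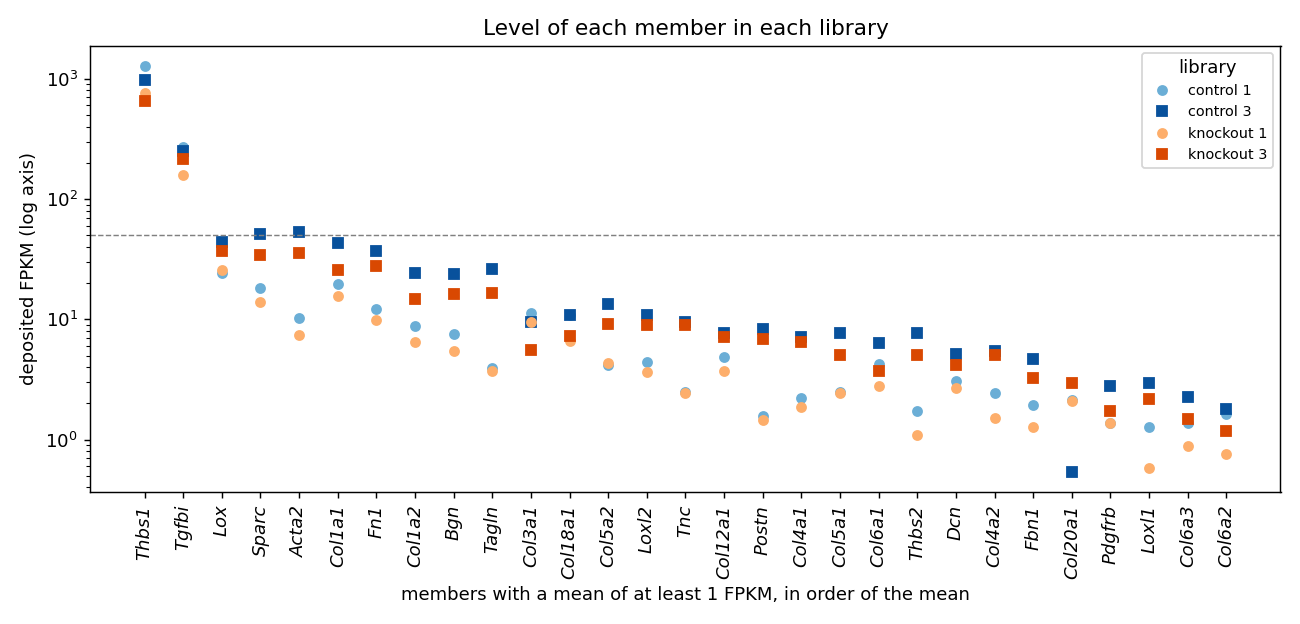
Deposited FPKM (log axis) of the 29 members with a mean of at least 1 FPKM, in order of the mean, with 1 point for each of the 4 libraries and a dashed line at 50 FPKM. Thbs1 and Tgfbi stand above all others in every library, and for most other genes the libraries numbered 3 (squares) lie above those numbered 1 (circles).

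Of the 64 named rows, 15 were too low to be members. Col9a1, Col9a2, Col8a2, Col22a1, Col26a1, Col28a1 and Col6a5 had no count in any library, which allows at most 0.152 to 0.218 CPM per library (12 counts, or 3 read pairs if each gave 4 counts; the limit covers counting error only). Another 8, among them elastin (Eln), the hypertrophic cartilage collagen Col10a1 and the epithelial anchoring collagen Col17a1, had 1 to 39 counts in all. The members nearest the limit were Col4a4 with 40 counts and Col4a3 with 62, and just under it were Col6a4 with 35 and Col24a1 with 32. All 49 members passed the filter of the edgeR fits.

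Between genotypes, both Thbs1 and Tgfbi read lower in each knockout than in each control. Thbs1 measured 8675 and 6451 CPM in controls 1 and 3 and 5124 and 4462 CPM in knockouts 1 and 3 (log2 fold change -0.66 ± 0.26 SE, n = 2 libraries per group, adjusted p = 1, edgeR's quasi-likelihood test). Tgfbi measured 1156, 1041, 661.2 and 904.0 CPM in the same order (log2 fold change -0.49 ± 0.23 SE, adjusted p = 1, same test). Neither gene passed the threshold. An exact permutation test of 2 libraries against 2 cannot give a two-sided p below 0.333.

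No member was called between genotypes by edgeR at an adjusted p of 0.05, against a background of 0% of the 17260 genes tested. At an unadjusted p under 0.05 stood 2 members and 391 of all genes tested. DESeq2 and limma also called 0 members, while DESeq2 called 73 genes in all and gave 3 members an unadjusted p under 0.05. How many of all genes lay under that unadjusted p in DESeq2 was not counted. The 2 members with the lowest p in edgeR were basement membrane and beaded-filament collagens on chromosome 10. Col18a1 (ENSMUSG00000001435, 77052178 to 77166548, minus strand), the source of the fragment endostatin, measured 86.1 and 84.4 CPM in the controls and 51.3 and 57.2 CPM in the knockouts (log2 fold change -0.65 ± 0.15 SE, adjusted p = 1, edgeR). Col6a2 (ENSMUSG00000020241, 76595762 to 76623630, minus strand), a chain of collagen VI, measured 15.3 and 16.5 CPM in the controls and 7.09 and 11.0 CPM in the knockouts (log2 fold change -0.82 ± 0.30 SE, adjusted p = 1, edgeR).

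Within library numbers, most members read lower in the knockout. The log2 difference of knockout minus control (on CPM with a prior count of 2) was below 0 in both numbers for 38 of the 49 members, which is 77.6%, against 26.9% of the 17054 genes with the same summed count. It was above 0 in both numbers for 5 members and of opposite sign for 6. The median difference of the members was -0.27 in number 1 and -0.52 in number 3, where the median of all genes was 0.00 and -0.02. With 1 library per genotype, the difference within a single number has no test, and members made by the same cells are not independent of each other. A fit with library number as a block tested both numbers together and called 0 members in edgeR and in DESeq2. The lowest adjusted p of a member in that fit was 0.0505, for Thbs1 in DESeq2. In 8 members, or 16.3%, each knockout stood under each control, against 13.2% of all genes, a share near the background. Those 8 were Thbs1, Tgfbi, Col18a1, Col6a1, Col6a2, Col9a3, Col7a1 and Col4a5. Col9a3, Col7a1 and Col4a5 rested on few counts. In control 1, control 3, knockout 1 and knockout 3 they had 23, 26, 11 and 30, then 39, 74, 42 and 32, then 56, 24, 23 and 4. In 2 members, Col15a1 and Col4a4, each knockout stood above each control, and in the other members the genotypes overlapped.

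**Figure D2:**
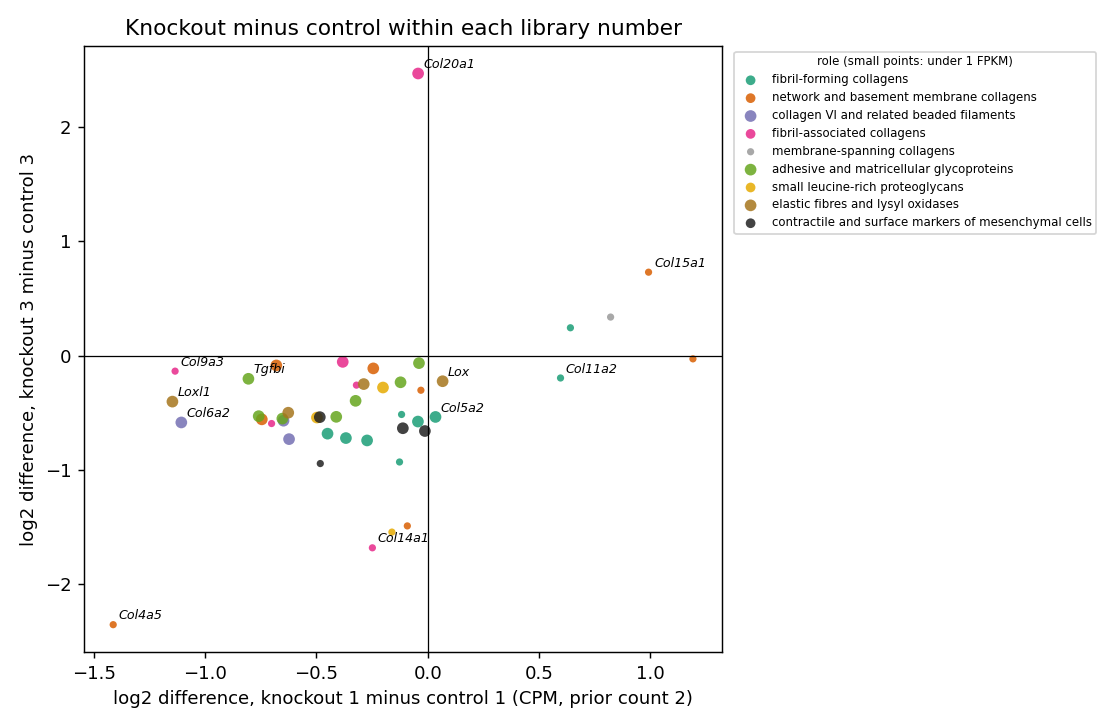
Log2 difference of knockout minus control within number 1 (horizontal axis) and number 3 (vertical axis) for the 45 members with a count in every library, coloured by role, with small points for members under 1 FPKM. Most points lie in the lower left part, and Col20a1 stands alone at the top.

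The fibril-forming collagens (10 members of 11 rows) gave 6 members below 0 in both numbers, with medians of -0.08 in number 1 and -0.63 in number 3. Col1a1 (ENSMUSG00000001506, chromosome 11, 94936224 to 94953042, plus strand), the main chain of type I collagen, measured 146.2 and 313 CPM in controls 1 and 3 and 113.3 and 189.5 CPM in knockouts 1 and 3 (log2 fold change -0.60 ± 0.46 SE, adjusted p = 1, edgeR). Its partner chain Col1a2 measured 123.2, 333.3, 90.2 and 207.3 CPM (log2 fold change -0.62 ± 0.63 SE, adjusted p = 1, edgeR). In both genes knockout 3 stood above control 1, so the genotypes overlapped. Col3a1, the chain of type III collagen found in soft tissues, measured 124.2, 102.7, 102.8 and 61.3 CPM, with control 3 and knockout 1 nearly level. Col5a2, a type V chain that helps start fibrils, was close to equal in number 1 (44.7 and 45.8 CPM) and lower in the knockout of number 3 (141.9 and 97.7 CPM). The cartilage collagen Col2a1 had 0, 222, 4 and 63 counts in the 4 libraries, nearly all of them in number 3.

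Among the network and basement membrane collagens (9 members of 12 rows), 6 members lay below 0 in both numbers, with medians of -0.09 and -0.11. The type IV chains that are found in most basement membranes hardly differed between genotypes in number 3. Col4a1 measured 18.5, 58.9, 15.6 and 54.4 CPM, and Col4a2 18.0, 39.9, 11.2 and 37.6 CPM. The chains of specialised basement membranes were near the limit of detection. Col4a5 measured 1.03 CPM in control 1 and 0.388 in control 3, and 0.368 and 0.0505 CPM in the knockouts, the last of which is under the level that 12 counts give. Col15a1, a relative of Col18a1, read higher in the knockout of each number at 0.516, 0.985, 1.06 and 1.66 CPM. Col4a4 had 4, 0, 15 and 21 counts, with control 3 at 0.

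Collagen VI, which forms beaded filaments around cells, and its relatives (8 rows) had 4 members, all of them collagen VI chains, and the 3 main chains lay below 0 in both numbers. Col6a1 measured 20.8 and 30.4 CPM in the controls and 13.5 and 18.3 CPM in the knockouts, and Col6a3 18.5 and 29.6 against 11.8 and 19.9 CPM. For Col6a3 the groups overlapped, since knockout 3 stood above control 1. The fourth, Col6a6, was almost confined to number 1, with 56 and 126 counts there against 0 and 4 in number 3.

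The fibril-associated collagens (6 members of 9 rows) had 5 members below 0 in both numbers. The most abundant, Col12a1, measured 82.4, 127.3, 63.2 and 122.5 CPM, with a difference of -0.38 in number 1 and -0.06 in number 3. The exception was Col20a1, at 12.3 and 3.07 CPM in controls 1 and 3 and 11.9 and 17.2 CPM in knockouts 1 and 3. Control 3 stood apart from the other libraries of that gene, and its difference of 2.47 in number 3 was not repeated in number 1 (-0.04). Col23a1, the only membrane-spanning collagen among the members, read 0.828, 0.614, 1.49 and 0.783 CPM.

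All 7 adhesive and matricellular glycoproteins lay below 0 in both numbers, with medians of -0.41 and -0.40. Fibronectin, Fn1 (ENSMUSG00000026193, chromosome 1, 71585520 to 71653175, minus strand), measured 159.7, 476.3, 127.6 and 361.6 CPM (log2 fold change -0.38 ± 0.72 SE, adjusted p = 1, edgeR). Sparc, a collagen-binding glycoprotein of remodelling tissue, measured 77.7, 211.2, 58.5 and 145.5 CPM (log2 fold change -0.50 ± 0.65 SE, adjusted p = 1, edgeR). Thbs2, a relative of Thbs1, measured 13.5, 58.7, 8.56 and 39.96 CPM. Differences of tenascin C (Tnc; 21.8, 81.5, 21.2 and 77.8 CPM) and periostin (Postn; 15.5, 78.7, 14.2 and 66.9 CPM) between genotypes were small beside those between numbers. The 3 small leucine-rich proteoglycans, which bind collagen fibrils, also lay below 0 in both numbers. Of these, biglycan (Bgn) measured 51.9, 160.5, 36.8 and 110.1 CPM (log2 fold change -0.53 ± 0.75 SE, adjusted p = 1, edgeR) and decorin (Dcn) 19.99, 33.2, 17.4 and 27.3 CPM.

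Of the elastic fibre and lysyl oxidase genes (4 members of 5 rows), 3 lay below 0 in both numbers. Lox was the exception at 130, 231.5, 136.2 and 198 CPM (log2 fold change -0.11 ± 0.36 SE, adjusted p = 1, edgeR). Loxl2, a further cross-linking oxidase, measured 27.0, 64.7, 22.1 and 54.4 CPM, and fibrillin 1 (Fbn1), the backbone of microfibrils, 26.4, 62.6, 17.1 and 44.2 CPM. The 5 contractile and surface markers of mesenchymal cells all lay below 0 in both numbers, with medians of -0.48 and -0.64. Acta2 (ENSMUSG00000035783, chromosome 19, 34241090 to 34255590, minus strand), the smooth muscle actin of myofibroblasts, measured 25.3, 128.4, 18.1 and 88.3 CPM (log2 fold change -0.53 ± 1.04 SE, adjusted p = 1, edgeR). Tagln, which encodes the actin-binding protein transgelin, measured 8.82, 57.6, 8.16 and 37.0 CPM (log2 fold change -0.56 ± 1.10 SE, adjusted p = 1, edgeR). Annotated exons of Pcsk7 and Gm48529 on the other strand overlap 67.9% of the exon bases of Tagln, those of Gm9913 overlap 20.1% of Fbn1, and whether counting used the strand is not given. Pcsk7 itself measured 35.2, 42.8, 40.4 and 33.5 CPM. The receptor Pdgfrb, which marks pericytes and fibroblasts, was level in number 1 at 8.38 and 8.30 CPM and lower in the knockout of number 3, at 10.6 against 16.7 CPM. The surface protein Thy1 had only 8, 30, 0 and 32 counts.

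The pooled fit has no term for number, so the difference between numbers entered the error of each fold change above. For 8 of the 10 members with the highest FPKM, all but Thbs1 and Tgfbi, the fold change lay above 0 once control 3 was left out (from 0.06 for Col1a1 to 1.36 for Tagln), and for 6 of them once knockout 1 was left out. Either omission leaves numbers and genotypes unbalanced.

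The libraries numbered 3 had more RNA of most members than those numbered 1, in both genotypes. Both libraries numbered 3 lay above both numbered 1 for 32 of the 49 members, which is 65.3%, against 26.3% of all genes. The median difference of number 3 minus number 1 over the members was 1.15 in the controls and 0.99 in the knockouts on the log2 scale, and 0.00 over all genes in both. The 2 high-level genes did not share this, since Thbs1 read lower in number 3 in both genotypes and Tgfbi lower in the controls but higher in the knockouts (log2 differences -0.15 and 0.45), whereas 24 of the 27 middle-level members read higher in number 3 in both genotypes. The exceptions in the middle class were Col3a1, Col18a1 and Col20a1. Of the 20 low-level members, 11 read higher in number 3 in both genotypes. The share of all genes that did so was not counted, and the 26.3% above is for a stricter measure. Summed over the members outside the high class, the level was 174.1 and 436.6 FPKM in controls 1 and 3 and 142.3 and 309.7 FPKM in knockouts 1 and 3.

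Of the 49 members, 6 passed an edgeR test of number 3 against number 1, all of them higher in number 3 (12.2%, against 0.55% of all 17260 genes called higher). They were tenascin C (log2 difference 1.89 ± 0.12 SE, adjusted p = 0.0161), periostin (2.30 ± 0.15, adjusted p = 0.0166), Col4a1 (1.74 ± 0.15, adjusted p = 0.0284), Tagln (2.48 ± 0.26, adjusted p = 0.0382), Acta2 (2.32 ± 0.27, adjusted p = 0.0434) and Col8a1 (1.84 ± 0.22, adjusted p = 0.0465), a short-chain network collagen that measured 3.35, 13.1, 3.28 and 10.6 CPM. In each of these genes the 2 genotypes of a number lay closer together than the 2 numbers, which is what this test selects for. Col3a1 did not share the difference (-0.47 ± 0.27, adjusted p = 0.444). The count of 6 depended on single libraries. It was 0 without control 1 and 0 without knockout 1, 3 without control 3 (Postn, Tagln and Tnc), and 6 without knockout 3, of which 4 were the same genes. Without a filter on low counts it was 13, with genotype as a further term 9, and with DESeq2 27. In these settings 375, 122 and 1557 of all genes were called in either direction. The 27 members also include a gene that read lower in number 3, Col6a6, with 56 and 126 counts in number 1 against 0 and 4. All 6 genes were among the 13 and the 27, and 5 of them among the 9, where Col8a1 was not called. The numbers are not a treatment of the study, and what sets them apart was not tested.

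**Figure D3:**
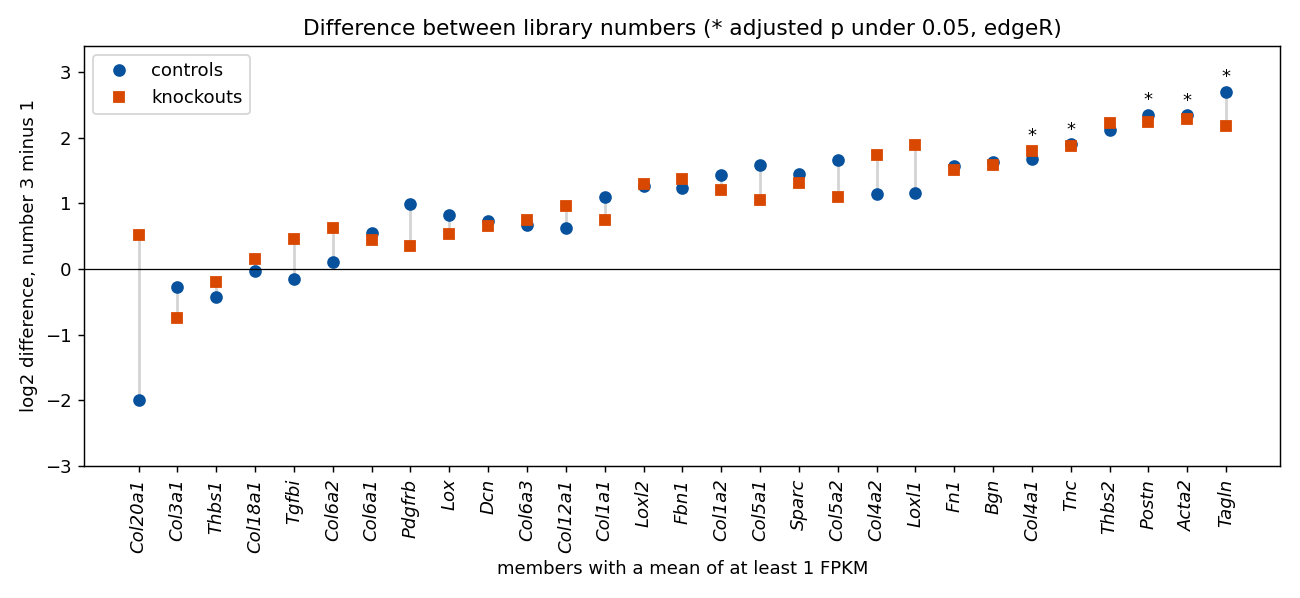
Log2 difference of number 3 minus number 1 in the controls and in the knockouts for the members of at least 1 FPKM, with genes of an adjusted p under 0.05 marked by a star. Most genes lie above 0 in both genotypes; Col8a1, the sixth called gene, averages under 1 FPKM and is not drawn.

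To show what lies upstream of genes that did and did not differ between numbers, the 250 bases before the start of Postn (chr3:54360857-54361106, plus strand), Col8a1 (chr16:57754738-57754987, minus strand), Thbs2 (chr17:14694263-14694512, minus strand) and Col3a1 (chr1:45311288-45311537, plus strand) are given 5′ to 3′ on the gene's strand, from RefSeq on GRCm38.p6. Postn and Col8a1 were called higher in number 3, Thbs2 had a difference of 2.16 ± 0.31 SE (adjusted p = 0.0619, edgeR), and Col3a1 was not higher. Capitals mark matches to the TATA box (letters TATAAA), the CCAAT box (its own 5 letters) or the GC box (letters GGGCGG) on either strand, where a match on the other strand appears as its reverse complement.
Postn: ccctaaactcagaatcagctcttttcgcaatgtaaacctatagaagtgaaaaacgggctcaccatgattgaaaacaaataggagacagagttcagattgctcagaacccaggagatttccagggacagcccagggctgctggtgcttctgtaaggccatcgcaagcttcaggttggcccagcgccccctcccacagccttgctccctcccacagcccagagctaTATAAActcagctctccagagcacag
Col8a1: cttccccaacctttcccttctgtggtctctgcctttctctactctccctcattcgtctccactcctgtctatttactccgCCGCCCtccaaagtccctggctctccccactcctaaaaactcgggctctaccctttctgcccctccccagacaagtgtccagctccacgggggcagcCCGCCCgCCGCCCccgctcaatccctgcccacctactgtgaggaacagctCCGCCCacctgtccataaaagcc
Thbs2: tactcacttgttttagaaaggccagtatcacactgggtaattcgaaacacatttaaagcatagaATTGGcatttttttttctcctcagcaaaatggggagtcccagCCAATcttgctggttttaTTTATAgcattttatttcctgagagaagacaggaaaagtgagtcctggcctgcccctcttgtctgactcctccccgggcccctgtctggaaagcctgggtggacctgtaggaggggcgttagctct
Col3a1: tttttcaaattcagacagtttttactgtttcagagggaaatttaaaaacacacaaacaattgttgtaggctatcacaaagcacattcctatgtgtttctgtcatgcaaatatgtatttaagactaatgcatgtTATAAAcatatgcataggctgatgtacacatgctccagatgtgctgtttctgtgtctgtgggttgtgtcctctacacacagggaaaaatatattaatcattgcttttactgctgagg
The Postn window held 1 TATA box, which began 26 bases before the start, and the Col8a1 window held 4 GC boxes on the other strand, which began 170, 73, 66 and 23 bases before it. The Thbs2 window held a CCAAT box at 144 bases and, on the other strand, a CCAAT box at 186 and a TATA box at 126 bases, and the Col3a1 window held a TATA box at 117 bases. No 2 of the marked matches overlapped. Of all 32536 windows of that length in the RefSeq table, 12.3% held a TATA box, 33.8% a CCAAT box and 33.0% a GC box. The table had an entry for 32 of the 49 members, but many of these entries start far from the gene's start in the deposited table or lie within annotated exons, so no share over the members is given. The 4 windows shown start within 27 bases of it and hold no annotated exon. These are matches of letters and not tests of binding.

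Ratios between partner chains, and between the contractile genes, ranged less widely than the levels themselves. Col5a2 over Col5a1, in FPKM, was 1.68, 1.77, 1.78 and 1.82 in control 1, control 3, knockout 1 and knockout 3, so the highest was 1.08 times the lowest. Col1a1 over Col1a2 was 2.25, 1.78, 2.38 and 1.73, higher in both libraries numbered 1 than in both numbered 3. Col6a1 over Col6a3 was 3.08, 2.81, 3.14 and 2.52, and Acta2 over Tagln 2.60, 2.02, 2.01 and 2.16. Ratios between different molecules moved further. Col3a1 over Col1a1 was 0.568 and 0.607 in number 1 against 0.219 and 0.216 in number 3, and Fn1 over Thbs1 was 0.00956 and 0.0129 against 0.0384 and 0.0421. The first of these was nearly equal in the 2 genotypes of a number.

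**Figure D4:**
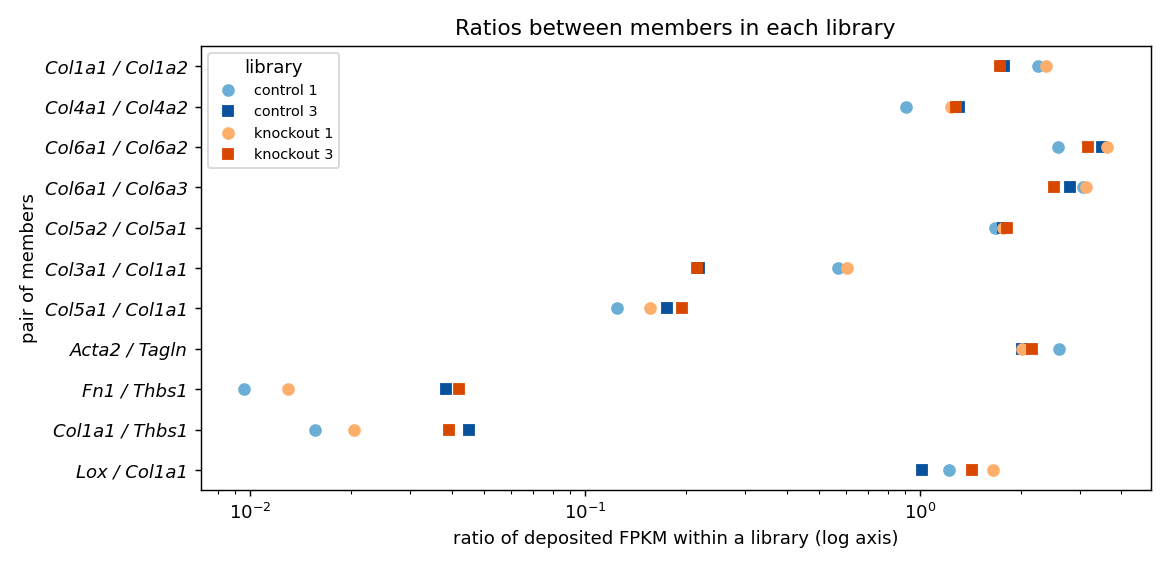
Ratios of FPKM between member genes in each of the 4 libraries (log axis). Col5a2 over Col5a1 is nearly constant, whereas Col3a1 over Col1a1 and Fn1 over Thbs1 split by library number.

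Markers of other cells were measured beside the members. The 15 macrophage markers summed to 8846, 9144, 9206 and 9555 FPKM. Each was present in the table above the filter, so the labelled cell type was found in every library. Some of them varied more widely than this sum. Itgam measured 562.4 and 160.6 FPKM in controls 1 and 3 and 478.2 and 376.4 FPKM in knockouts 1 and 3. C1qb measured 327.5, 713.5, 903 and 474.1 FPKM in the same order. Of the 15, 3 lay below 0 in both numbers, 2 lay above, and 4 read higher in number 3 in both genotypes. The 23 markers of fibroblasts and marrow stroma, such as Pdpn, Fstl1 and Serpinf1, summed to 25.3 and 64.9 FPKM in controls 1 and 3 and to 22.5 and 36.7 FPKM in knockouts 1 and 3. The order of this sum is that of the summed middle- and low-level members, highest in control 3 and lowest in knockout 1, and the part of these cells in the member differences was not tested. Single markers differed from the sum. Of the 18 with the summed count, 12 lay below 0 in both numbers, against 26.9% of all genes, and 13 read higher in number 3 in both genotypes. How many of all genes read higher in number 3 in both genotypes was not counted, so neither this count nor that of the macrophage markers has a background. Pdpn, the most abundant, measured 9.94 and 22.1 FPKM in controls 1 and 3 and 10.2 and 10.7 FPKM in knockouts 1 and 3, and Lepr and Dpt read lower in number 3 in both genotypes (Lepr at 1.08 and 0.0460 FPKM in the controls and 0.702 and 0.0390 FPKM in the knockouts). Of the 23, 4 (Pcolce, Mfap4, Mfap5 and Fbln1) are also on a matrix list below, and none was at 0 in all libraries. The 10 osteoblast markers summed to 0.902, 2.01, 1.09 and 1.09 FPKM, with Bglap, Bglap2, Dmp1, Ibsp and Omd at 0. The 11 markers of smooth muscle and pericytes summed to 3.41, 3.44, 2.17 and 2.21 FPKM, and those of endothelium, also 11, to 3.09, 7.99, 3.02 and 9.44 FPKM. The nearly equal sums of smooth muscle and pericyte markers in the 2 numbers hid opposite differences. Mcam measured 0.620, 1.07, 0.794 and 1.61 FPKM, and Des 1.83, 1.05, 0.736 and 0.0669 FPKM. Of the 10 such markers with the summed count, 3 read higher in number 3 in both genotypes. The 17 markers of colon epithelium summed to 0.42, 0.748, 0.98 and 0.684 FPKM, with 9 of them, among them Epcam, Krt8, Krt18 and Cdx2, at 0. RNA of MC38 cells alone was not analysed here, so whether these genes mark them is not known.

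**Figure D5:**
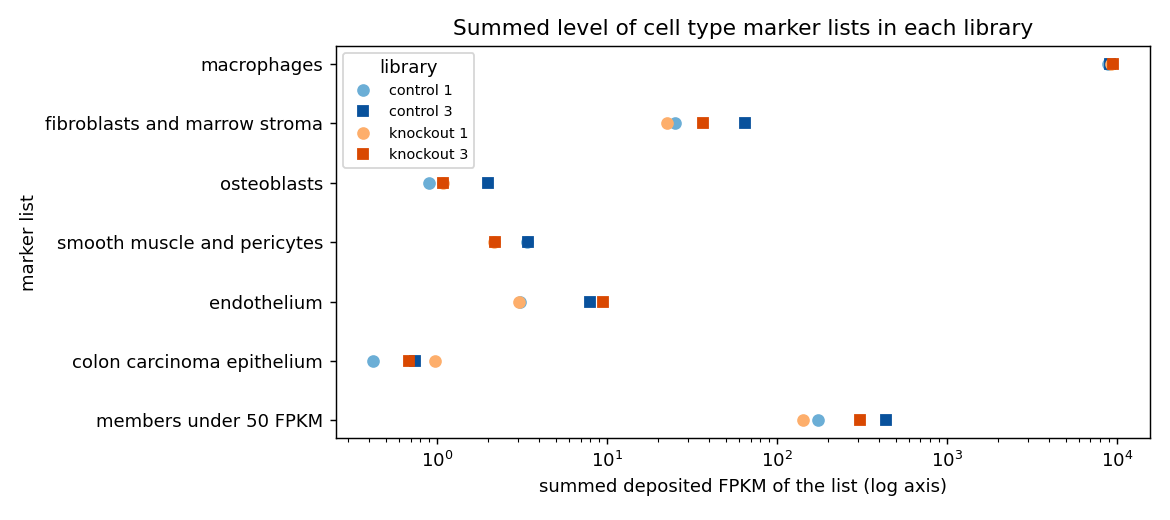
Summed FPKM of marker lists of 6 cell types and of the members outside the high class in each library (log axis). The sum of the fibroblast and marrow stroma markers follows the members' order over the libraries. The sum of the macrophage markers stays between 8846 and 9555 FPKM, though some single markers vary more widely.

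Genes of collagen processing, further matrix genes and receptors were described from lists, whose counts below 0 in both numbers stand beside the 26.9% of all genes given above. Of 27 genes for collagen folding, hydroxylation and processing, 26 had the summed count, 12 of these lay below 0 in both numbers and 8 above, and the medians were -0.09 and -0.09. None was called between genotypes or numbers. Serpinh1, the chaperone HSP47 that is specific to collagen, did resemble the collagens, at 21.2 and 71.0 CPM in controls 1 and 3 and 14.0 and 44.7 CPM in knockouts 1 and 3. So did Fkbp10, a further chaperone of collagen (5.78, 16.3, 4.85 and 11.8 CPM), P4ha3, a prolyl hydroxylase subunit (0.479, 3.47, 0.400 and 2.48 CPM), and Adamts2, which trims procollagen (5.97, 12.6, 3.50 and 8.68 CPM). These genes were named after their values were seen. The 4 most abundant genes of the list did not share the lower reading in number 1. There P4hb, Ppib, Plod1 and P4ha1 had log2 differences of knockout minus control of 0.11, 0.05, 0.08 and 0.07. In number 3 the values were 0.66, -0.06, 0.16 and 0.27. Of 15 laminins and linkers of the basement membrane, 13 had the count, 7 lay below 0 in both numbers and 1 above, with medians of -0.40 and -0.42, and Lamb1 was called higher in number 3. Of 42 other matrix glycoproteins and proteoglycans, 32 had the count, 19 lay below 0 in both numbers and 3 above, with medians of -0.44 and -0.70, and Ccn1, Ccn2 and Smoc1 were called higher in number 3. Of 16 receptors for collagen and fibronectin, 7 lay below 0 in both numbers and 3 above, with medians of -0.07 and -0.03, and Cd36 and Itgb3 were called higher in number 3. None of the genes on these 4 lists was called between genotypes.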

How the data were processed

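Poly(A) RNA of 4 libraries was sequenced as pairs from dUTP libraries, per the labels' protocols. The submitters' processing notes name cutadapt 1.9, HISAT2 2.0.4 and StringTie 1.3.4d, and edgeR and DESeq2 without versions. Genome build and strand setting were not given in the sources used here. A single table was deposited by the authors, with estimated counts and FPKM per gene and library per the file headers. Its deposited estimated counts were whole and unscaled, and low counts were often multiples of 4, so the fragments behind a count are not known. The deposited FPKM were scaled by the authors for gene length and library size. A further 4 columns of values matched no sample and were not used.

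Counts were fitted over all genes in edgeR 4.0.16 under R 4.3.3 (quasi-likelihood test, TMM, filterByExpr, two-sided, Benjamini-Hochberg, threshold 0.05), for knockout against control and, separately, for number 3 against number 1. Each standard error was computed from the F statistic and the fold change. p-values measure only the spread between these libraries. Differences within a number use CPM with a prior count of 2. Alternatives were DESeq2 1.42.0, limma 3.58.1 on log2(FPKM + 1), other scalings, filters, pseudocounts and class limits, leaving out each library, and a replicate block. The scripts were tested on simulated data. Members with a mean of at least 5 FPKM were to be given in each library, and the 10 highest with a fold change. The members and lists were chosen with earlier results of these data known. Of the 49 members, 44 had the same start and end in GENCODE M21 (GRCm38), and coordinates of genes are those of the deposited table.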

Additional observations from a re-analysis of the deposited data

Results flagged for a closer look

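Among members with a count in every library, 5 differed in opposite directions between genotypes in the 2 library numbers, that is, the knockout read higher in one number and lower in the other. The values below are the log2 difference of knockout minus control in number 3 less that in number 1, and the difference between numbers was not tested, since each number holds 1 library per genotype. It was 2.52 for Col20a1, where control 3 stood at 3.07 CPM and the other libraries between 11.9 and 17.2. It was -1.22 for Col4a3, which had 62 counts in all. It was -0.79 for Col11a2, a minor fibrillar chain at 2.76, 3.13, 4.19 and 2.73 CPM in control 1, control 3, knockout 1 and knockout 3. It was -0.57 for Col5a2 and -0.29 for Lox, both of which were within 0.07 of equality in number 1.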

How the results depend on the processing

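No member was called between genotypes under any of the 12 alternatives run. Over all genes edgeR called 0, DESeq2 73 and DESeq2 with the replicate block 171. With the replicate block, edgeR called 0 genes. In that setting 15 members had an unadjusted p under 0.05 in each tool (lowest adjusted p 0.829 in edgeR and 0.0505 in DESeq2). The share of all genes under that unadjusted p was not counted, so these 15 have no background to be read against. Libraries of the same number deviated together (r = 0.419 over 17260 genes, equal in both pairs by construction), which with 2 pairs does not establish a pairing. Genes called between numbers were 177, against 375 without a filter, 1557 with DESeq2 and 1 to 87 with a library left out. Members called were 6, against 13, 27 and 0 to 6 in the same order. With a library left out, fold changes between genotypes ranged from -0.46 to 0.37 for Lox, -1.31 to 0.40 for Sparc, -2.09 to 1.08 for Acta2, -1.04 to 0.0551 for Col1a1, -1.32 to 0.62 for Fn1, -1.34 to 0.28 for Col1a2, -1.53 to 0.51 for Bgn and -2.03 to 1.36 for Tagln. Those of Thbs1 (-0.85 to -0.42) and Tgfbi (-0.73 to -0.26) stayed below 0. The high class held 7 members at 20 FPKM and 2 at 100. The members below 0 in both numbers were 32 to 38 and the medians -0.22 to -0.30 and -0.52 to -0.54 under the 6 other scalings, pseudocounts and count limits, 1 of which (only members with a count in every library) was added after the data were seen. Not all of these counts are out of 49. The 32 came from keeping only members with a summed count of at least 200. Of the 45 members with a count in every library, 37 lay below 0 in both numbers. The 4 libraries, with 12 counts worth up to 0.218 CPM, do not resolve members of a few counts.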

Other observations

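Versican (Vcan), a large proteoglycan that is no member, ran against most of the matrix genes between numbers. It measured 1312 and 373.9 CPM in controls 1 and 3 and 701.6 and 197.4 CPM in knockouts 1 and 3, so its difference of knockout minus control was -0.90 in number 1 and -0.92 in number 3, and its difference between numbers was -1.82 ± 0.43 SE (adjusted p = 0.132, edgeR). The matricellular genes Ccn1 (4.47, 30.2, 4.45 and 24.5 CPM; difference between numbers 2.62 ± 0.19 SE, adjusted p = 0.0194, edgeR) and Ccn2 (21.9, 120.2, 14.9 and 98.7 CPM; 2.57 ± 0.24 SE, adjusted p = 0.0322, edgeR) read higher in number 3 in both genotypes. Lepr, a receptor known on marrow stromal cells, was called in the other direction, at 8.58 and 5.52 CPM in number 1 and 0.355 and 0.316 CPM in number 3 (difference -4.39 ± 0.38 SE, adjusted p = 0.0284, edgeR). The inhibitory collagen receptor Lair1 read higher in the knockout of each number, at 51.0, 45.9, 60.4 and 62.0 CPM (log2 fold change 0.34 ± 0.15 SE, adjusted p = 1, edgeR).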
